A study of Mus musculus with 192 samples.

Results

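The effect of Nrf2 loss on the cerebrum (Cbr) was examined in the mice that stayed on the ground, by comparing Nrf2-KO mice (GC_KO, 6 mice) with wild-type mice (GC_WT, 6 mice). These were 12 of the 192 libraries of the series, chosen by their labels for tissue, genotype and condition and by no measured value. All 12 mice were labelled as strain C57BL/6 and 12 weeks of age, and per the study's methods they were male, on the C57BL/6J background, and kept singly in the cage units used for flight. The GC_KO mice carried the germline knockout Nfe2l2 tm1Ymk in every cell, while the GC_WT mice carried no modified allele. Per the methods the Nrf2-KO mice had been given ketamine and xylazine before the experiment, so that animals with a hepatic shunt, a defect of some mice of this line, could be set aside by their sleeping time. No such treatment is described for the WT mice, so its effect and that of genotype cannot be told apart. Neither group was flown. Behavioural tests and blood sampling preceded dissection under isoflurane in both groups. The cerebra of flown mice (FL_WT and FL_KO) and the livers (Liv) and spleens (Spl) of the same 12 ground mice are used below only for comparison.

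Nrf2, encoded by Nfe2l2, is a transcription factor of the cap'n'collar family that is held in the cytoplasm and marked for degradation by Keap1 and its partner Cul3. When electrophiles or oxidants modify Keap1, Nrf2 accumulates, pairs with small Maf proteins and activates genes for glutathione synthesis and conjugation, quinone reduction, NADPH supply and iron storage through the antioxidant response element. In brain this pathway is known mainly from astrocytes, whose Nrf2 activity supplies neurons with glutathione precursors, while mature neurons hold little Nrf2 protein.

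The 12 libraries held between 13465673 and 14860536 expected counts each, with overlapping ranges in the groups, and all came from separate mice. Levels are given as TPM, the authors' length-corrected share of all transcripts in a library. The labelled tissue carried neuronal and cortical markers at high level in every mouse, with Snap25 between 2898 and 3612 TPM and Tbr1 between 63.8 and 82.8 TPM. The cerebellar markers Pcp2, Gabra6 and Cbln3 were at or below 0.67 TPM in 11 mice, and reached 2.18, 1.02 and 2.28 TPM in the GC_KO mouse GC04. A further planned cerebellar marker, Zic1, was not low. It lay between 27.8 and 38.6 TPM in GC_WT and between 29.1 and 51.0 TPM in GC_KO, highest in GC04. GC04 also lay farthest from its group, at a root mean square distance of 0.355 log2 units over 11707 genes, against 0.209 to 0.255 for the other GC_KO mice. Among GC_WT mice GC03 lay farthest, at 0.295 against 0.204 to 0.242. The hypothalamic peptides Hcrt and Pmch were nearly absent from GC03 (0 and 0.48 TPM) and low in GC05 (1.19 and 3.60 TPM), so these regional markers varied widely among mice of 1 genotype.

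The targeted gene was checked first. Nfe2l2 (ENSMUSG00000015839, chr2:75675513-75704641, minus strand, mm10) had a lowest, median and highest level of 15.45, 16.9 and 18.1 TPM in GC_WT and of 3.88, 4.41 and 6.39 TPM in GC_KO. Every GC_KO mouse lay below every GC_WT mouse. The log2 fold change was -1.81 (SE 0.0845, adjusted p = 4.95e-14 by the quasi-likelihood test of edgeR with Benjamini-Hochberg adjustment over 16382 genes), and the GC_KO mean was 28.4% of the GC_WT mean. In an exact two-sided permutation test of log2(TPM + 1) the means differed by -1.64 (p = 0.00216, the smallest value that 6 mice against 6 can give). The files give 1 value per gene, so reads from the exons the knockout allele keeps cannot be told apart from reads of an intact transcript. All 12 libraries matched their genotype labels on this gene.

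Across the cerebrum 137 of 16382 genes passed an adjusted p of 0.05 (0.836%, called below), 70 of them higher in GC_KO (0.427%) and 67 lower (0.409%). The CPM values (counts scaled to library size) of the 6 GC_KO and 6 GC_WT mice did not overlap for 106 of the 137 called genes, against 168 of all genes tested (1.03%). The median log2 fold change over all genes was 0.00. Of the called genes 115 were protein coding, and 88 differed by less than 2-fold (54 higher, 34 lower). Of the 49 that differed by 2-fold or more, 33 were lower. Without GC04 the count was 225 (120 higher, 105 lower), and 134 of the 137 were among them. The increase lay in the small differences, with 174 genes under 2-fold and 51 at 2-fold or more.

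Few Nrf2-dependent enzymes differed between the genotypes. Of the 136 genes in 6 lists covering the Nrf2 pathway and its textbook target enzymes, 117 passed the filter on low counts and 5 were called (4.27%, against 0.836% of all genes): Nfe2l2, Gstm1, Aox1 and Aldh7a1 lower, and Idh1 higher. This share includes the targeted gene Nfe2l2 itself, whose call followed from the genotype. The median log2 fold change over the 117 was -0.0048, and 22 of them (18.8%) had an unadjusted p under 0.05, against 9.27% of all genes.

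**Figure D1:**
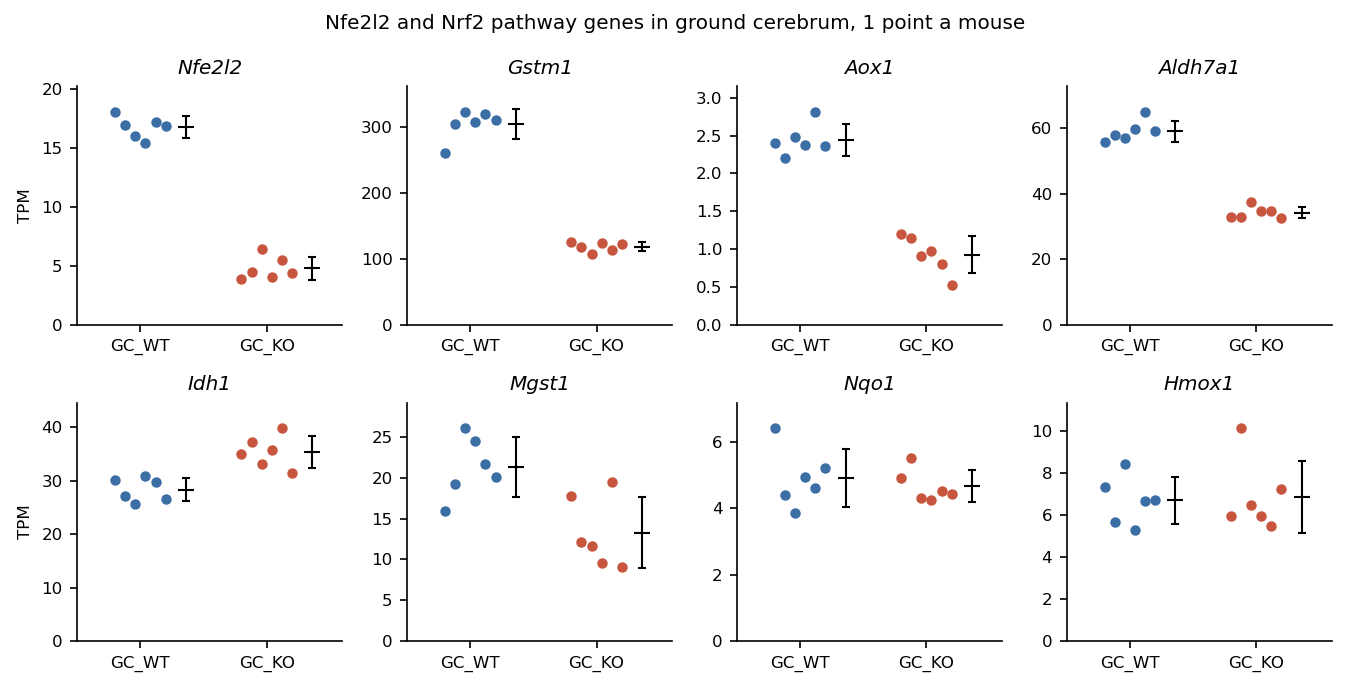
Levels of Nfe2l2 and 7 genes of the Nrf2 lists in the cerebrum of the 12 ground mice. The vertical axes are TPM on a linear scale from 0, each point is 1 mouse of GC_WT or GC_KO, and the bars beside the points give the mean and SD of 6 mice. Nfe2l2, Gstm1, Aox1 and Aldh7a1 separate completely with GC_KO below, Idh1 separates with GC_KO above, and the groups overlap for Mgst1, Nqo1 and Hmox1.

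Among the glutathione transferases, which couple glutathione to electrophiles, 1 abundant member fell and the rest did not pass. Gstm1 (ENSMUSG00000058135, chr3:108012255-108017973, minus strand), a mu class transferase, had a lowest, median and highest level of 260.3, 310.1 and 324.1 TPM in GC_WT and of 106.8, 121 and 125.2 TPM in GC_KO. The groups were far apart, and GC03 was the lowest GC_WT mouse. The fold change was 0.391 (log2 -1.35, SE 0.0830, adjusted p = 1.25e-11). Its transcripts share 11.5% of their 76-base windows with transcripts of other genes, so a small part of its reads could have been assigned elsewhere. Of 24 listed transferases 19 were tested and 18 were not called, with a median log2 fold change of 0.10 for the list. The mu class neighbours Gstm5 (178 to 206 TPM in GC_WT, 162 to 224 in GC_KO, log2 0.00), Gstm7 (0.21, adjusted p = 0.451) and Gstm2 (0.62, adjusted p = 0.366) did not fall with it. The pi class member Gstp1 had a log2 difference of -0.05, and the theta class member Gstt1, with 10.4 to 17.5 TPM in GC_WT and 15.9 to 20.7 in GC_KO, one of 0.43 (adjusted p = 0.116). The microsomal transferase Mgst1 had 15.98, 20.9 and 26.1 TPM in GC_WT and 9.10, 11.9 and 19.5 TPM in GC_KO (log2 -0.62, SE 0.160, adjusted p = 0.0650). Its groups overlapped. It passed without GC03 (-0.72), GC01 (-0.74) or GC11 (-0.72) and by DESeq2 (-0.63).

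Of the oxidoreductases and conjugating enzymes that depend on Nrf2 in other tissues, 32 of 44 were tested and 2 were called, both lower. Aox1, the aldehyde oxidase (chr1:58029931-58106413, plus strand), had 2.20, 2.40 and 2.82 TPM in GC_WT and 0.520, 0.940 and 1.20 TPM in GC_KO. All GC_KO mice were below all GC_WT mice, at low levels in both groups. It fell by 1.38 on the log2 scale (SE 0.134, adjusted p = 1.49e-07). Aldh7a1, an aldehyde dehydrogenase of lysine breakdown on chromosome 18, had 55.8, 58.6 and 65.2 TPM in GC_WT and 32.6, 33.9 and 37.4 TPM in GC_KO (log2 -0.81, SE 0.0476, adjusted p = 5.41e-12). No GC_KO mouse came near the GC_WT range. Nqo1, the quinone reductase that is most often used to read Nrf2 activity, lay between 3.84 and 6.41 TPM in GC_WT and between 4.25 and 5.52 TPM in GC_KO (log2 -0.05, adjusted p = 0.957). Carbonyl reductase Cbr1 (0.05) and aldo-keto reductase Akr1a1 (-0.01) had log2 differences near 0.

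In the glutathione and thioredoxin system none of 30 tested genes was called. The count at an unadjusted p under 0.05 was 8, of which 4 were above 0 and 4 below (over all genes 5.46% and 3.82% were under it in each direction), and the median log2 fold change was 0.01. The subunits of glutamate-cysteine ligase, which makes the precursor of glutathione, had log2 differences of 0.00 (Gclc) and -0.10 (Gclm, adjusted p = 0.530). Cystine transporter Slc7a11 (0.00) and sulfiredoxin Srxn1 (0.05) showed no difference that this test could detect. Thioredoxin reductase Txnrd1 lay between 30.1 and 42.03 TPM in GC_WT and between 26.1 and 36.6 TPM in GC_KO (-0.18, SE 0.0513, adjusted p = 0.128). Glutathione synthetase Gss (0.27, adjusted p = 0.139) and peroxiredoxin Prdx6 (-0.14, adjusted p = 0.531) did not pass either. Catalase (Cat) had a log2 difference of -0.21 (adjusted p = 0.158) and passed in 1 alternative, without GC02 (-0.28). Of 14 members below 0 in this list, none differed by more than 0.21 on the log2 scale.

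Enzymes that supply NADPH showed 1 call in 8. Idh1, the cytosolic isocitrate dehydrogenase (chr1:65158616-65186500, minus strand), had 25.7, 28.4 and 30.9 TPM in GC_WT and 31.4, 35.4 and 39.9 TPM in GC_KO. The groups did not overlap, and GC_KO was higher by 0.33 on the log2 scale (SE 0.0636, adjusted p = 0.00479). Malic enzyme Me1 (-0.15, adjusted p = 0.397), transaldolase Taldo1 (-0.05) and transketolase Tkt (0.01) did not pass. Among 16 genes of iron and haem handling none was called, and 1 had an unadjusted p under 0.05. That gene was Ftl1, the ferritin light chain, with 394, 413 and 597 TPM in GC_WT and 311, 333 and 389 TPM in GC_KO (log2 -0.37, SE 0.0983, adjusted p = 0.0748). Its groups did not overlap in TPM, and it passed by DESeq2 (-0.38) and without GC03 (-0.43). Haem oxygenase Hmox1, known as a strongly inducible Nrf2 target, lay between 5.29 and 8.44 TPM in GC_WT and between 5.50 and 10.1 TPM in GC_KO (log2 0.05). Of the 12 regulators only Nfe2l2 was called. Keap1 (0.02), Cul3 (-0.08, adjusted p = 0.522) and the related factor Nfe2l1 (-0.04) had log2 differences near 0.

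**Figure D2:**
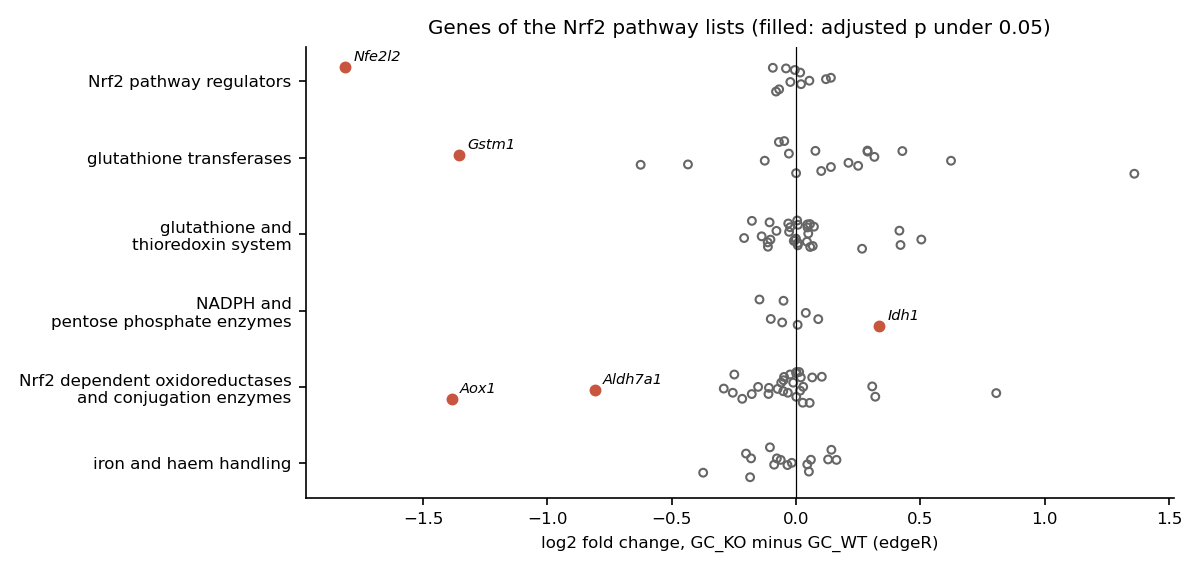
Log2 fold change (GC_KO minus GC_WT, horizontal axis) of the tested genes in the 6 Nrf2 lists. Each point is 1 gene, offset vertically only for legibility, and filled points passed an adjusted p of 0.05. Most points of each list lie near 0, with Nfe2l2, Gstm1, Aox1 and Aldh7a1 filled on the lower side and Idh1 filled on the higher side.

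The antioxidant response element has the core TGACNNNGC, read on either strand (reverse complement GCNNNGTCA). Where its middle bases are TCA the core also holds the AP-1 letters TGACTCA. RefSeq promoters of build GRCm38.p6, from 250 bases before to 50 after each start, held the core in 4071 of 32851 cases (12.4%). By gene, 16.5% of 11715 tested genes with an entry had a match, against 15.5% of the 84 called genes with an entry (13 genes, 9 of them higher and 4 lower) and 25.3% of the 99 genes of the 6 Nrf2 lists (25 genes). The called genes were thus close to the share of all tested genes. The first lines give promoters of Gstm1 and Aox1, the enzymes with the largest falls in the lists, which hold no match in this window. The shorter lines give the matches, in capitals with 10 bases on each side and read in the direction of the core, of Nfe2l2 and of 6 listed genes that were not called.

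Gstm1 promoter, chr3:108017924-108018223 on the minus strand: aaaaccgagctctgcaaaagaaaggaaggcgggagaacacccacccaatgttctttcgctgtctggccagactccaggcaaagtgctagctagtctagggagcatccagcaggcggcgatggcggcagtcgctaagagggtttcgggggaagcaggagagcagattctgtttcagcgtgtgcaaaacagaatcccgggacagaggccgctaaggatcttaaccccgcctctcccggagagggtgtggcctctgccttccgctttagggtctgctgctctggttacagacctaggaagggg

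Aox1 promoter, chr1:58029719-58030018 on the plus strand: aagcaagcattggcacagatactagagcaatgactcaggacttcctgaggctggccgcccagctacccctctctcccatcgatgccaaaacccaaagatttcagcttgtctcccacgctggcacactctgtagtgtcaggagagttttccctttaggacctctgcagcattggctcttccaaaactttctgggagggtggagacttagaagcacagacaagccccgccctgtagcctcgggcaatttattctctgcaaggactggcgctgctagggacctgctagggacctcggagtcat

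Nfe2l2 window, chr2:75704885-75704913 on the minus strand: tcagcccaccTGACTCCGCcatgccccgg

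Me1 window, chr9:86695902-86695930 on the minus strand: gatgccgccgTGACTCAGCgcttctcgcg

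Prdx1 window, chr4:116685456-116685484 on the minus strand: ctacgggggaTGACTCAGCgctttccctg

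Mgst1 window, chr6:138140461-138140489 on the minus strand: ccccgcctccTGACCGTGCcaagccccgc

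Txnrd1 window, chr10:82859104-82859132 on the minus strand: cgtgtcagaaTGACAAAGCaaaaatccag

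Gclm window, chr3:122245413-122245441 on the minus strand: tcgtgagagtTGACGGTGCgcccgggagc

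Gstm7 window, chr3:107931725-107931753 on the minus strand: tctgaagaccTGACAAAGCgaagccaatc

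Me1 and Prdx1 hold the same core, with the AP-1 letters inside it, and Gstm7 and Txnrd1 also share a core with each other. The 6 genes with a match that were not called had log2 fold changes between -0.62 (Mgst1) and 0.21 (Gstm7), so a core in this window went with values on both sides of 0. A missing match says only that these letters are not within these 300 bases.

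The largest differences lay outside the Nrf2 lists, which held 5 of the 137 called genes. Genes with the largest changes whose groups did not overlap were mostly predicted genes and transcripts that lie next to each other. On chromosome 4, between 41.9 and 42.9 Mb, 16 of 23 tested genes were called and all 16 were lower in GC_KO (69.6%). This run, like the others described by position, was chosen after its values were seen. Gm10600 had 24.1, 28.4 and 38.7 TPM in GC_WT and was listed at 0 in all 6 GC_KO mice. With 2295 counts over the GC_WT group and a floor of 3 counts over the GC_KO group its deposited counts were at least 758-fold lower. Gm13304 had 46.2, 59.5 and 68.6 TPM in GC_WT and at most 0.330 TPM in GC_KO, and Gm5859 had 43.8, 52.9 and 70.6 TPM against at most 0.630 TPM. By the deposited estimates these genes thus had counts in every GC_WT mouse and almost none in every GC_KO mouse. Gm17081 lay between 48.2 and 90.8 TPM in GC_WT and between 0.240 and 2.46 TPM in GC_KO (log2 -5.14, SE 0.293, adjusted p = 3.79e-12).

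The same run holds Ccl21b, a chemokine that guides lymphocytes and dendritic cells, and Gm10591, which had identical values because the annotation gives them an identical transcript of 402 bases. Both had 3.82, 9.64 and 12.7 TPM in GC_WT and 0 TPM in 4 GC_KO mice, 0.06 TPM in GC01 and 0.790 TPM in GC04, with 2 rounded counts over the group, both in GC04. Fam205a2 and Fam205a3 likewise share an identical transcript of 3927 bases, and each had 10.1, 11.5 and 12.5 TPM in GC_WT and 2.73, 3.62 and 4.24 TPM in GC_KO (log2 -1.66, SE 0.0973, adjusted p = 5.41e-12). All windows of 76 bases in Ccl21b, Gm10591, Fam205a2, Fam205a3, Gm13304 and Gm21093 also occur in transcripts of other genes. Gm10600, Gm17081 and Gm5859 share 88.4%, 84.1% and 83.0% of their windows. Reads shared between copies can be split only by estimation, so the single values of all these genes, and the bound for Gm10600, are uncertain. The other 7 tested genes of the interval were not called.

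On chromosome 14, between 69.3 and 69.7 Mb, all 4 tested genes were called and higher in GC_KO. Entpd4 and Entpd4b, near-identical copies of a nucleotidase of the Golgi and lysosomes, had 26.1, 29.9 and 45.1 TPM and 15.7, 16.7 and 17.6 TPM in GC_WT. In GC_KO they had 51.3, 56.3 and 73.2 TPM and 27.97, 32.0 and 33.0 TPM. Both were higher in every GC_KO mouse than in any GC_WT mouse, by log2 fold changes of 0.89 and 0.90. Next to them Gm27177 had 0.0600, 0.145 and 0.320 TPM in GC_WT and 15.2, 16.6 and 19.6 TPM in GC_KO (log2 6.69, SE 0.191, adjusted p = 3.08e-18), with all its windows shared with other genes. Gm16867 was at 0 in all GC_WT mice and had 199 counts over the GC_KO group, at least 67.0-fold higher. It shares 92.0% of its windows with other genes, so this bound too rests on how shared reads were split.

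Other genes with large differences lay on chromosomes 1, 12, 13 and 18, some of them near further called genes. Wdfy1, an endosomal adaptor of Toll-like receptor signalling (chr1:79702262-79776143, minus strand), had 7.80, 8.90 and 11.3 TPM in GC_WT and 22.6, 25.9 and 30.6 TPM in GC_KO. The groups were apart by more than the range of either, and the log2 fold change was 1.58 (SE 0.0713, adjusted p = 2.56e-14). The antisense transcript 1500015A07Rik on chromosome 18 had 3.05, 4.38 and 4.83 TPM in GC_WT and 49.5, 63.0 and 73.2 TPM in GC_KO. Its log2 fold change in counts was 2.75 (SE 0.114), and the strand setting of the counting is not given in the sources used here. Gm3608 on chromosome 1 (0.340 to 1.39 TPM in GC_WT, 14.6 to 22.1 in GC_KO) and Gm7868 on chromosome 12 (0 to 1.22 against 6.17 to 11.8 TPM) were also higher in every GC_KO mouse. Gm3608 shares 75.4% of its windows with other genes.

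Nnt, the mitochondrial transhydrogenase that makes NADPH (ENSMUSG00000025453, chromosome 13), had 0.390, 0.980 and 3.03 TPM in GC_WT and 4.55, 7.97 and 10.9 TPM in GC_KO. No GC_KO mouse fell within the GC_WT range, though both groups varied widely. Nnt shares 46.4% of its windows with other genes. The log2 fold change was 2.70 (SE 0.545, adjusted p = 0.00895). The C57BL/6J substrain is known for a partial deletion of Nnt, and whether the groups differ in that allele was not tested. Of 7 tested genes between 119.3 and 119.7 Mb on chromosome 13, 3 were called: Nnt higher, and Tmem267 (34.1, 38.9 and 56.5 TPM in GC_WT, 14.4, 19.9 and 29.3 TPM in GC_KO, log2 -1.03) and the chemokine Ccl28 (-1.27) lower. On the same chromosome the ferritin copy Ftl1-ps1 had 7.36, 8.93 and 12.8 TPM in GC_WT and 0, 1.115 and 2.77 TPM in GC_KO (log2 -2.87, adjusted p = 0.00381), with 60.2% of its windows shared with other genes.

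By position 70 of the 137 called genes lay within 1 Mb of another called gene and 108 within 10 Mb, counts that were not compared with those of other genes. Chromosome 3 between 96.9 and 108.0 Mb held 13 of 100 tested genes, with Gstm1 at its end. Among them Capza1, a subunit of the actin capping protein, had 25.8, 28.7 and 32.3 TPM in GC_WT and 11.6, 13.2 and 16.4 TPM in GC_KO (log2 -1.07, SE 0.0696, adjusted p = 4.06e-11). Capza1 shares 55.1% of its windows with other genes. Phtf1 had a log2 fold change of -0.80. Aox1, Idh1 and Wdfy1 lie in a stretch of chromosome 1 between 58.0 and 79.8 Mb with 8 of 142 genes called. Aldh7a1, Camk2a, 1500015A07Rik and Gnal lie in a stretch of chromosome 18 between 50 and 67.2 Mb with 8 of 80 genes called. Chromosome 19 held 8 of 98 between 42.2 and 55.6 Mb, and at 6.3 Mb the neighbours Ehd1 (-0.58), an endosomal recycling protein, and Cdc42bpg (-1.07), a kinase of the cytoskeleton. On chromosome 7, 15 of 251 were called between 35.2 and 73.4 Mb (5.98%), among them Kcnj11, the pore of the ATP-sensitive potassium channel (24.6 to 27.4 TPM in GC_WT, 15.01 to 18.3 in GC_KO, log2 -0.67). By whole autosome the share called ran from 0 of 784 on chromosome 17 to 20 of 1004 on chromosome 4 (1.99%).

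On chromosome 2, which carries the targeted gene, 3 of 60 genes within 5 Mb of Nfe2l2 were called with Nfe2l2 itself left out (5%), 4 of 197 within 20 Mb (2.03%) and 9 of 611 within 50 Mb (1.47%). The nearest included Cybrd1, an iron-regulated ferric reductase, with 0.430, 0.770 and 1.08 TPM in GC_WT and 1.32, 1.61 and 2.45 TPM in GC_KO (log2 1.16). Farther along, Cd59a, an inhibitor of complement, had 7.26, 10.1 and 13.4 TPM in GC_WT and 2.59, 3.38 and 5.12 TPM in GC_KO (log2 -1.51, SE 0.159, adjusted p = 6.64e-07). Both genes separated the groups completely. The knockout and wild-type mice differ in the allele and in any sequence bred with it, and with 1 line of each genotype these cannot be told apart.

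**Figure D3:**
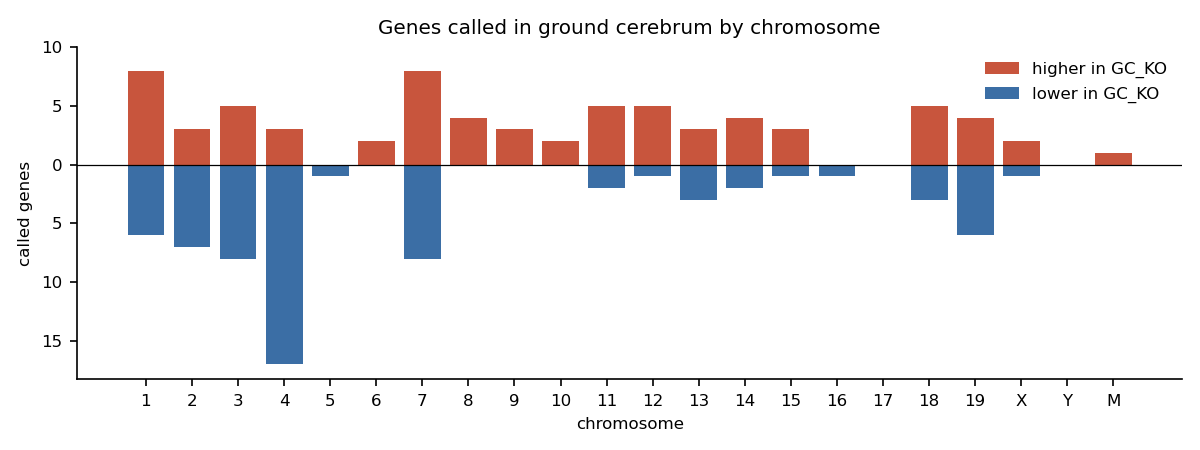
Number of called genes on each chromosome, with genes higher in GC_KO drawn above the zero line and genes lower in GC_KO below it. Chromosome 4 holds the most genes lower in GC_KO (17), and chromosome 17 holds none in either direction.

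The 88 called genes with differences under 2-fold included neuronal and glial genes at high level. Camk2a, the calcium-dependent kinase of excitatory synapses, had 1038.5, 1126.7 and 1364 TPM in GC_WT and 1204, 1325 and 1900 TPM in GC_KO. The groups overlapped, and GC04 was the highest mouse. Its log2 fold change was 0.28 (SE 0.0539, adjusted p = 0.00535), and it did not pass in a fit of the ground libraries alone (0.27) or by limma on log2(TPM + 1) (0.27). C1ql2, a synaptic organiser of hippocampal mossy fibres, had 3.68, 4.25 and 5.35 TPM in GC_WT and 5.75, 7.77 and 9.69 TPM in GC_KO (log2 0.79, SE 0.146, adjusted p = 0.00406), without overlap. Tac2, the precursor of neurokinin B, had 29.7 to 41.1 TPM in GC_WT and 39.7 to 60.3 TPM in GC_KO (log2 0.52, adjusted p = 0.0222), with overlap, and did not pass in 6 fits that left out 1 mouse each. Col1a1, a fibrillar collagen of meninges and vessels, had 1.45, 1.61 and 1.94 TPM in GC_WT and 1.91, 2.31 and 5.14 TPM in GC_KO (log2 0.87, adjusted p = 0.0390), and fell from the calls in 8 such fits.

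Further genes of this kind, named after their values were seen, were the astrocyte-enriched glycine transporter Slc6a9 (40.4 to 47.3 TPM in GC_WT, 47.3 to 54.5 in GC_KO, log2 0.24) and sodium pump subunit Atp1b2 (429 to 474 against 479 to 547 TPM, 0.24). Both groups of values were apart, by little. Lower in GC_KO was Lancl1, a glutathione-binding protein of neurons (142 to 167 TPM against 108 to 133 TPM, log2 -0.36, adjusted p = 2.64e-06), without overlap. Gnal, the G protein of striatal dopamine receptor signalling (162 to 182 against 127 to 163 TPM, -0.27), and Rarb, a retinoic acid receptor of striatal neurons (21.6 to 25.4 against 15.4 to 21.98 TPM, -0.38), were also lower, and overlapped in 1 or more mice. Of the mitochondrially encoded genes 1 of 15 was called: mt-Atp6, with 436, 531 and 775 TPM in GC_WT and 680, 1032 and 1419 TPM in GC_KO (log2 0.89, adjusted p = 0.00359). It shares 99.5% of its windows with other transcripts, and in flown mice its log2 difference was -0.21. Among the rest, mt-Co2 (0.97, adjusted p = 0.0977 by edgeR) and mt-Co3 (1.05, adjusted p = 0.279) rose by more but were not called. Without GC04 mt-Co2 passed (1.06). The others lay between -0.37 (mt-Nd4l) and 0.19 (mt-Nd6).

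The 26 lists outside the Nrf2 pathway, which cover cell types, brain regions, synapses and stress responses, held 289 tested genes, of which 4 were called (1.38%, against 0.836% of all genes). These were Camk2a, C1ql2, Tac2 and Col1a1, described above. Without GC04 the count was 11, since 7 further genes were called: Pde10a, Hap1, Nnat, Trh, Serpina3n and Vim, described below, and 1 astrocyte gene. In bulk tissue fewer cells of a type and less RNA per cell cannot be told apart. In all libraries no list of neurons, astrocytes, oligodendrocytes, microglia or vessels held another call by edgeR or DESeq2. Limma on log2(TPM + 1) called 1 myelin gene, and 1 mural gene was called without GC03 and GC04. The pan neuronal (-0.03), astrocyte (0.01), microglia (0.06) and endothelial (-0.05) medians were near 0 on the log2 scale. Of 15 oligodendrocyte and myelin genes 13 were below 0 (median -0.08), none called. The myelin gene Mbp overlapped between the groups, with its lowest level in GC12.

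The markers of striatum, hypothalamus, thalamus and hippocampus each lay to 1 side of 0, with few calls. All 11 tested striatal genes were below 0 (10 without GC04), with a median of -0.24, 9 at an unadjusted p under 0.05 and 0 called by edgeR. DESeq2 called 3 of the 11, all lower. The summed level of the list was 2220 to 2497 TPM in GC_WT and 1541 to 2282 TPM in GC_KO, lowest in GC11. Without GC04 Pde10a, a striatal phosphodiesterase, was called lower by edgeR (-0.53), and it was among the 3 called by DESeq2 (-0.42). All 9 tested hypothalamic genes were above 0 (median 0.66, 5 unadjusted, 0 called), with a summed level of 528 to 847 TPM in GC_WT and 633 to 1233 TPM in GC_KO, highest in GC11. Of its defining markers Hcrt was at 0 in GC03 and at 76.2 TPM in GC11. Without GC04, Hap1 (0.36), Nnat (0.42) and Trh were called higher, and without GC03 and GC04 none of the list was. All 8 thalamic genes were above 0 (7 without GC04, median 0.39, 5 unadjusted, 0 called), with a summed level of 185 to 221 TPM in GC_WT and 202 to 407 TPM in GC_KO. All 8 hippocampal genes were above 0 (median 0.20), with C1ql2 called and the highest summed level, 582 TPM, in GC02. The sums of the groups overlapped in each of these lists and were not tested, and their part in the small differences above was not tested.

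**Figure D4:**
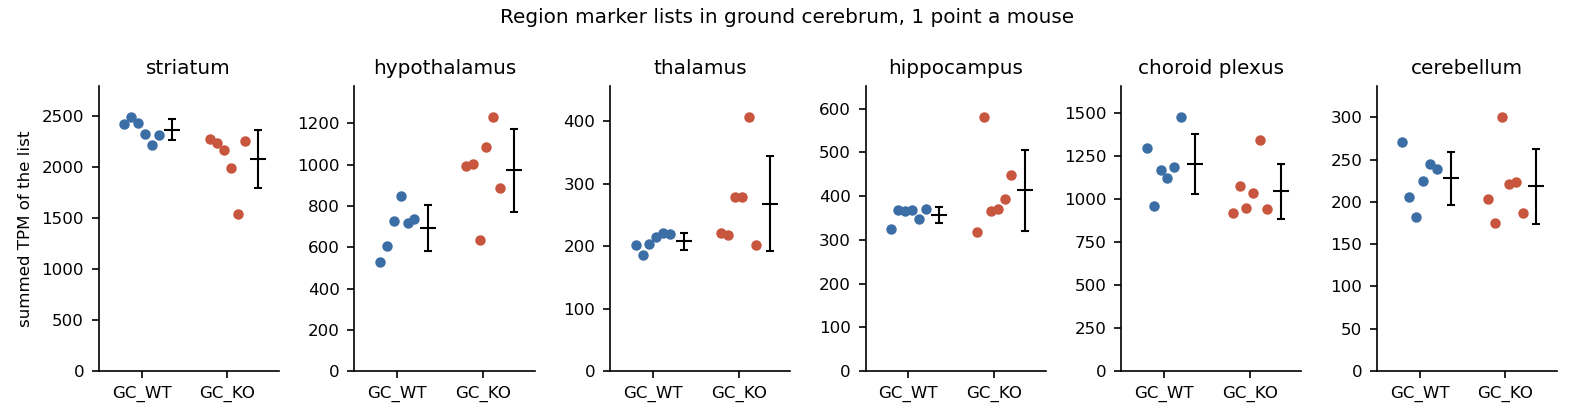
Summed TPM of 6 marker lists in each of the 12 ground mice, with linear axes from 0. Each point is 1 mouse, and the bars beside the points give the mean and SD of the 6 mice of GC_WT or GC_KO. Striatal sums reach down to 1541 TPM in GC_KO against a lowest GC_WT value of 2220, hypothalamic and thalamic sums reach 1233 and 407 TPM against highest GC_WT values of 847 and 221, and the groups overlap in each list.

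Other lists gave the following. Meningeal fibroblast genes were above 0 in 11 of 12 cases (median 0.21), with Col1a1 called and summed levels of 1112 to 1410 TPM in GC_WT and 1365 to 1561 TPM in GC_KO. Choroid plexus genes were below 0 in 11 of 13 cases (median -0.19, 0 called), and the groups overlapped in the plexus marker Ttr (898 to 1378 against 851 to 1249 TPM). Glial activation genes were above 0 in 9 of 12 tested cases (5 unadjusted, 0 called). Among them Vim, an intermediate filament of reactive astrocytes, had 37.8, 40.8 and 44.8 TPM in GC_WT and 44.7, 49.7 and 57.5 TPM in GC_KO (log2 0.29, adjusted p = 0.0618). Serpina3n, another marker of reactive astrocytes, had a log2 difference of 0.54 (adjusted p = 0.0973). Both passed without GC04 (0.31 and 0.62) and by DESeq2 (0.28 and 0.54), and Vim also by limma on log2(TPM + 1). Counting every alternative, Vim passed in 7 and Serpina3n in 3. None of 21 immediate early genes (median -0.21), 22 glucocorticoid and clock genes (-0.04) or 18 interferon-stimulated genes (0.00) was called.

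The cerebra of flown mice gave the same contrast in mice that share no library with the ground mice (6 FL_WT and 5 FL_KO mice), although the fit shared its estimate of the spread. The FL_KO mouse FL04, which the study set aside, was not fitted. There 87 genes were called (0.531%), 29 of them higher (0.177%) and 58 lower (0.354%), and 68 genes were called in the same direction in both settings, 49.6% of the ground calls and 78.2% of the flight calls. Of the 137 ground genes 134 had the same sign in flown mice, a count that was not compared with that of all genes. Without GC04 the shared genes were 30.7% of the ground calls and 79.3% of the flight calls. Of the 49 genes that differed by 2-fold or more 37 were called in flight too, against 31 of the 88 with smaller differences. Genes that were lower in GC_KO had a median log2 fold change of -0.95 on the ground and -0.84 in flight, with 45 of 67 called in flight. Genes that were higher had 0.61 and 0.31, with 23 of 70. All these genes were chosen by the ground test, which favours large ground values, so these medians do not compare the settings evenly.

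Nfe2l2 (-1.83), Gstm1 (-1.32), Aox1 (-1.56), Aldh7a1 (-0.80) and Idh1 (0.38) were called in flown mice with log2 fold changes near those on the ground, as were Wdfy1 (1.37) and Camk2a (0.28). Nnt (1.77, adjusted p = 0.164) and Ftl1-ps1 (-1.57, adjusted p = 0.442) were not called in flight. Neither were C1ql2 (0.31), Tac2 (0.27), Col1a1 (0.43) and Bdkrb2 (0.30 against 1.18 on the ground), a bradykinin receptor. In a test of the difference between the flight and ground effects no gene passed in edgeR (0 of 16382, smallest adjusted p = 0.960, 383 or 2.34% at an unadjusted p under 0.05) or in DESeq2 (0, with 321 unadjusted). A call on the ground and none in flight therefore does not show that the effect differed.

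**Figure D5:**
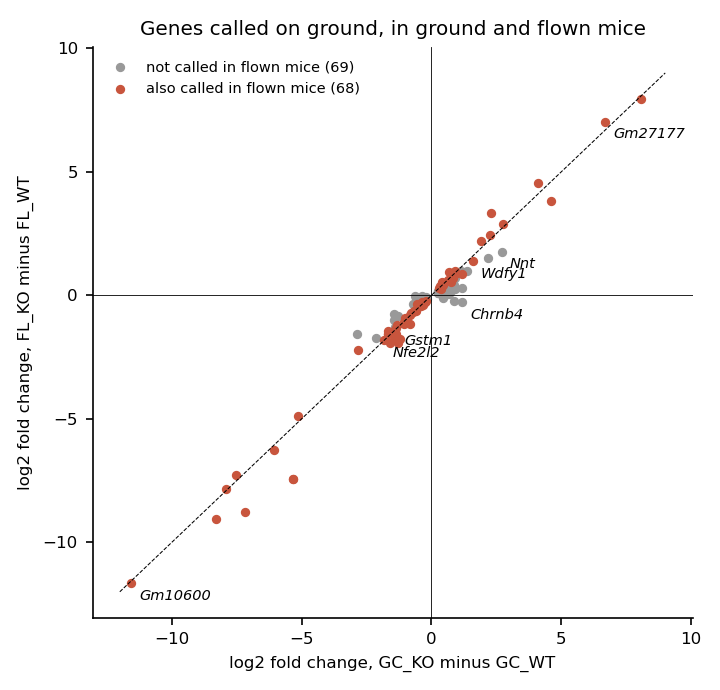
Log2 fold change in flown mice (FL_KO minus FL_WT, vertical axis) against that in ground mice (GC_KO minus GC_WT, horizontal axis) for the 137 genes called on the ground. Each point is 1 gene, red points were also called in flown mice (68), grey points were not (69), and the dashed line marks equal values. The sign is shared by 134 of the 137 genes.

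Liver and spleen of the same 12 mice showed which cerebral differences were larger or smaller elsewhere. Of the 137 genes 88 were tested in liver, and 31 of them were called there in the same direction and 2 in the opposite one (2.64% of all genes tested in liver were called). In spleen 107 were tested, 38 were called in the same direction and 1 in the opposite one (1.13% of all). A test within mice of the cerebrum effect minus the liver effect passed for 12 of 131 genes (0.523% of all genes tested), and minus the spleen effect for 14 of 132 (0.155% of all). Gstm1 ranged from 1620 to 2671 TPM in GC_WT liver and from 343 to 468 TPM in GC_KO liver, a larger fall than in cerebrum (difference of effects 0.90 on the log2 scale). Nfe2l2 lay between 73.1 and 85.1 TPM in GC_WT spleen and between 60.4 and 67.8 TPM in GC_KO spleen, a smaller fall than in cerebrum (difference -1.57). Aldh7a1 differed more in cerebrum than in liver (307 to 358 against 280 to 314 TPM, difference -0.62) or spleen (10.9 to 13.0 against 10.1 to 13.3 TPM, difference -0.96). Wdfy1 was higher in GC_KO in liver (4.82 to 7.44 against 7.90 to 10.3 TPM) and spleen (13.1 to 15.8 against 21.7 to 23.7 TPM), with a larger log2 fold change in cerebrum by 0.66 and 0.88. Of the Nrf2 lists, then, Gstm1 had its larger response in liver and Aldh7a1 in cerebrum.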

How the data were processed

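RNA of 24 cerebra was sequenced by the authors as single reads of stranded poly(A) libraries. Per the study's methods reads were aligned with STAR to mm10 and quantified with RSEM. The deposited table holds expected counts and TPM for 54752 genes in 192 libraries, and FPKM, which was not used. The expected counts deposited by the authors are estimates that split shared reads between genes, so they were rounded to whole numbers. The TPM values made by the authors served as levels. The strand setting of the counting is not given in the sources used here. Gene positions and transcript windows were read from the GENCODE annotation supplied for mm10, which may be of another release than that used for the counts.

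Counts of 23 libraries (FL04 left out, as in the study) were fitted in 1 model of 4 groups with the quasi-likelihood test of edgeR 4.0.16 (R 4.3.3, limma 3.58.1), after filterByExpr and with TMM factors, and p-values were adjusted over all 16382 genes. DESeq2 1.42.0 was an alternative. The fit was tested on simulated data. Cerebrum was compared with liver and spleen with the mouse as a block, since the mouse number in the labels names the same animal in each tissue. The ground libraries held between 13465673 and 14860536 counts, and intervals and floors cover counting error only.

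The genes named are Nfe2l2, the 15 largest rises and 15 largest falls among called genes whose CPM did not overlap and whose mean TPM was at least 1 in a group, every called member of 32 lists (454 genes), up to 4 members of each list with the highest mean TPM, members of the 6 Nrf2 lists with an unadjusted p under 0.05, and others where said. Members and lists were chosen with earlier results of these data known. Pairs of libraries within a group differed by more than counting noise (chi-square per degree of freedom 3.15 to 24.3 over 30 pairs), so none was counted as a duplicate. Alternatives left out each ground mouse in turn (each flown mouse for the flight count), used other scaling, tools and filters, or fitted the ground libraries alone. Some genes that the rule names are not reported here.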

Additional observations from a re-analysis of the deposited data

Results flagged for a closer look

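In 14 of 142 groups of 6 mice 1 mouse stood apart from the rest by Dixon's 95% criterion, which chance meets in about 1 in 20 groups. GC04 was that mouse for its distance from its group (0.355 log2 units), for Camk2a (1900 TPM, next 1409), for the summed excitatory neuron list (2722 TPM, next 2235) and for the summed endothelial list (461 TPM). GC04 was also the highest GC_KO mouse for Gm27177 (19.6 TPM), Gm3883 (10.51 TPM), Ccl21b (0.790 TPM) and Gm10591 (0.790 TPM). GC11 stood apart in GC_KO for Gm3608 (22.1 TPM), Gm13302 (0.1 TPM) and the summed choroid plexus list (1347 TPM). Among GC_WT mice GC03 stood apart for Gm5859 (70.6 TPM) and Gstm1 (260.3 TPM, next 304.7), and GC07 for the summed pituitary list (9.07 TPM).

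For 11 named genes the effect in cerebrum differed from that in liver or spleen of the same mice in a test within mice. Given as the cerebrum log2 fold change minus that of the other tissue, Gm13304 differed by -7.84 from liver and by -8.73 from spleen. It was near 0 in liver of both groups (at most 1.20 TPM) and overlapped in spleen. Aldh7a1 differed by -0.62 from liver and -0.96 from spleen, Wdfy1 by 0.66 and 0.88, and Gstm1 by 0.90 from liver. Against spleen the differences were -1.57 for Nfe2l2, 2.04 for 1500015A07Rik, -4.09 for Gm3883 (which had at most 0.27 TPM in spleen of either group, so that the spleen effect rests on almost no reads), -5.59 each for Ccl21b and Gm10591 (which rest on 2 counts in GC_KO cerebrum), 1.37 for Cybrd1 and 1.53 for Plekha4.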

How the results depend on the processing

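No paired analysis was possible because the mouse numbers of GC_WT and GC_KO do not overlap. For the difference between flight and ground effects the mouse number as a replicate block gave 0 calls (623 unadjusted). Without the replicate block, 115 genes differed in effect between cerebrum and liver in place of 89, and 47 between cerebrum and spleen in place of 28. The count of 137 genes on the ground became 219 by DESeq2 (135 shared), 84 and 82 by limma on log2(TPM + 1) and log2(TPM + 0.1), and 82 in a fit of the ground libraries alone. It was 137 with RLE factors, 125 with no filter on low counts and 133 with FL04 included. Leaving out 1 ground mouse gave 109 to 225, the highest without GC04. Leaving out GC03 and GC04, chosen after seeing the data, gave 146 (121 shared). The flight count of 87 became 110 by DESeq2 and 64 by limma, and 65 to 81 with 1 flown mouse left out. Of 406 listed genes 9 were called, and 16 without GC04. Of 3302 alternative values for 167 named genes, 28 gained and 25 lost the call and 1 changed direction: Slc17a7 ran from -0.058 (without GC02) to 0.068 (without GC04) with 1 mouse left out. Sign changes of uncalled genes smaller than 1 SE were counted as unchanged. Genes near 1 TPM rest on few counts, and copies with shared sequence on estimated splits.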

Other observations

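The 3 of 137 genes whose sign differed in flown mice were mt-Atp6, Gpc4 and Chrnb4. Gpc4, a glypican, had log2 differences of 0.45 on the ground and -0.13 in flight. Chrnb4, a nicotinic receptor subunit, had 1.16 and -0.27. Neither difference of effects passed the test over all genes.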
